A study of Rattus norvegicus with 196 samples.

Results

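Nr3c2 encodes the mineralocorticoid receptor, and its RNA was followed through 25 rat brain regions with and without fluoxetine, a selective serotonin reuptake inhibitor. The member is 1 transcript, ENSRNOT00000052018, of the 29188 in the deposited counts, and it was found by its name in the study's table of shared differentially expressed genes. That table names 1845 transcripts, each called by the study in several regions, so Nr3c2 was listed there for its response to treatment. No coordinates are given here, because the counts carry none and no annotation of their rn5 build was used.

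The animals were male Long-Evans rats that were 2 months old when treatment began. FT rats received fluoxetine at 18 mg/kg body weight in their drinking water for 6 weeks, and Sham rats received water. The 98 FT and 98 Sham samples were bulk RNA-seq libraries, each made from punches of 1 region pooled over 10 animals. Replicates were numbered 1, 3, 4 and 5, and the FT and Sham samples of a number were processed in parallel, so they are called a pair. MPOA lacked FT replicates 1 and 3 and Arc lacked the same Sham replicates, which left these regions with 2 pairs. The CGC pair of replicate 1 was left out, so CGC had 3 pairs and the other 22 regions had 4.

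The mineralocorticoid receptor is a nuclear receptor that binds aldosterone and, with high affinity, the glucocorticoids corticosterone and cortisol. It waits in the cytoplasm in a complex with heat shock proteins and their co-chaperones, moves to the nucleus when a steroid binds, and acts there with coactivators and corepressors as a transcription factor. In the brain it is known for its abundance in the hippocampus and septum, where it sets the basal tone of the hypothalamic-pituitary-adrenal axis and restrains transcription of the serotonin receptor gene Htr1a.

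Nr3c2 was a low-count transcript, with 0 to 899 reads per library and a median of 30. The totals per library ranged from 4586 to 50893913 counts, 35 libraries had fewer than 10 reads of Nr3c2 and 2 had none. The Sham SNT library of replicate 3 had 4586 counts and 0 reads of Nr3c2, which allows up to 262 CPM (read counts scaled to a common library size with TMM normalization) at a floor of 3 counts. The FT LC library of replicate 3 also had 0 reads, with a floor of 2.06 CPM. The Sham ILC library of replicate 3 had 543403 counts and 3 reads, which gave 19.7 CPM. Replicates 1 and 3 stood apart from the others in library makeup. The 50 most abundant transcripts took a median of 68.2% of the counts in replicate 3 and between 28.3% and 34.8% in the others, and a median of 23.7% of reads lay outside annotated features in replicate 1 against 38.2% to 46.0% elsewhere. Nr3c2 followed the replicate number too. Its median over Sham regions was 1.18 CPM in replicate 1, 4.63 in replicate 3, 5.15 in replicate 4 and 6.23 in replicate 5. In FT these medians were 0.385, 4.52, 3.0 and 2.49 CPM. Because a region is a tissue punch, fewer cells that express Nr3c2 and less Nr3c2 RNA per cell cannot be told apart in any of the comparisons.

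Marker genes were used to check some of the region labels. Th and Slc6a3, which mark dopamine neurons, were highest in VTA, the ventral tegmental area. Adora2a and Ppp1r1b, genes of striatal projection neurons, were highest in NaCcore and NaCshell, the core and shell of the nucleus accumbens, with BLA (basolateral amygdala) next. PENK, the enkephalin gene of such neurons, was highest in BLA. Neurod1 ranked second of 25 regions in dorDG, the dorsal dentate gyrus, but was highest in PAG, the periaqueductal grey. C1ql3, also a granule cell gene, was highest in PLC and ranked 3 and 4 of 25 in dorDG and venDG. Hcrt, the orexin gene of the lateral hypothalamus, was higher in VMH than in LH. PVN is listed by the study as the paraventricular nucleus of the thalamus. Tcf7l2, a thalamic gene, had its second-highest level there, while Avp and Oxt ranked 13 and 9 of 25. Tph2 and Slc6a4, which define serotonin neurons, have no named transcript here, and the Raphe label was not checked against them.

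To describe where the receptor is expressed without drug, all Sham libraries were fitted together, with the replicate number as a block. Nr3c2 was highest in the dentate gyrus and the lateral septum (LS). In dorDG the 4 Sham libraries read 4.89, 18.4, 19.0 and 27.6 CPM for replicates 1, 3, 4 and 5. In venDG, the ventral dentate gyrus, they read 1.15, 12.5, 13.0 and 18.3 CPM. In LS they read 4.64, 5.54, 8.84 and 13.0 CPM. In each of these regions the lowest value was that of replicate 1. dorDG was the highest of all regions in Sham replicates 1, 4 and 5 and second in replicate 3, where the 3-read ILC library was first. Replicates 4 and 5 each had dorDG, venDG and LS as their 3 highest regions, in that order. In replicate 1 venDG ranked 13 of 23 regions, and in replicate 3 LS ranked 10 of 24.

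**Figure D1:**
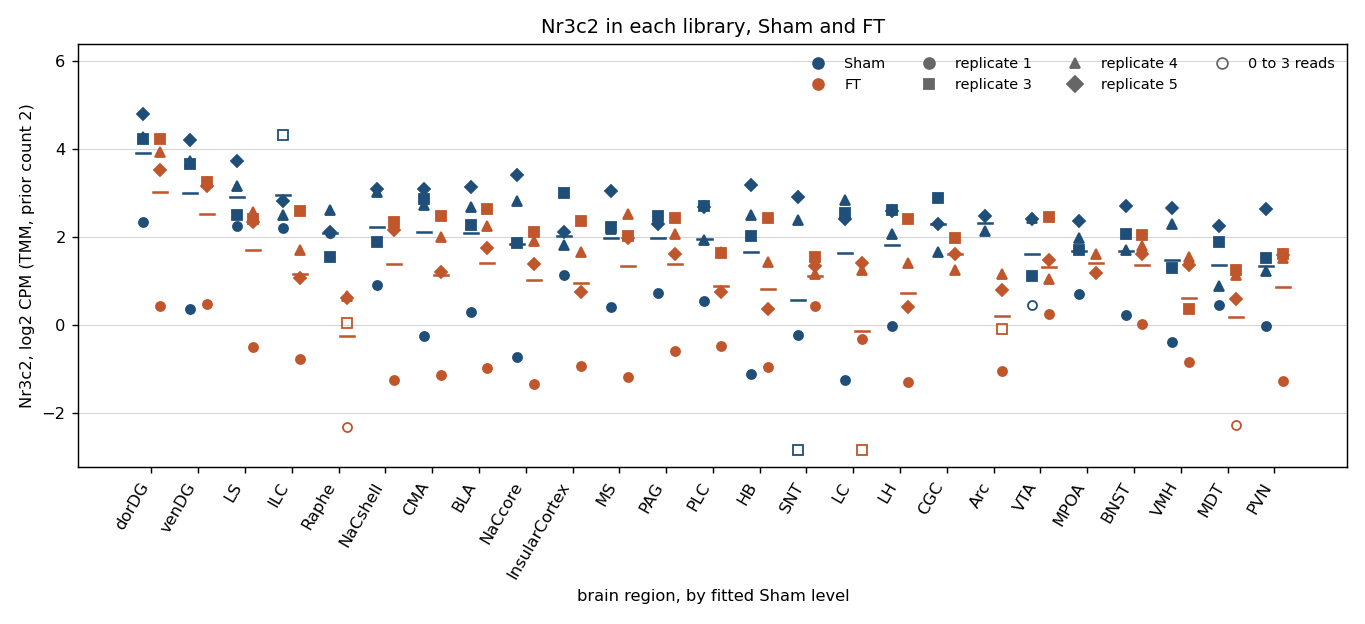
Nr3c2 level in every library used, as log2 CPM (TMM factors, prior count 2), for 25 regions in the order of their fitted Sham level; blue is Sham, orange is FT, symbols give the replicate number, open symbols mark libraries with 0 to 3 reads and short bars are group means. Replicate 1 (circles) lies lowest in most groups, dorDG and venDG hold the highest levels in both treatments, and all FT libraries lie below all Sham libraries in Raphe and Arc.

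The level differed between Sham regions by edgeR's quasi-likelihood test over all region terms (adjusted p = 1.46e-07), as it did for 69.3% of the 16977 transcripts tested. The fit took its 97 libraries as separate units, although they came from the Sham pools of 4 replicate numbers. Without the replicate block the adjusted p was 0.33. With dorDG and venDG left out, a fit added once the values were known, it was 0.0742, above the threshold of 0.05. The mean of dorDG and venDG lay above the mean of the other regions by 1.57 on the log2 scale (SE 0.18, edgeR adjusted p = 2.49e-11), a 2.97-fold difference, and 34.8% of transcripts were called in that contrast. In the FT libraries, which came from other animals, the same contrast was 1.90 (SE 0.16), or 3.74-fold, with 36.7% called. Taken 1 at a time against the mean of all others, 3 Sham regions passed at an edgeR adjusted p of 0.05. These were dorDG at a log2 difference of 1.91 (SE 0.24), venDG at 1.09 (SE 0.26) and LS at 1.05 (SE 0.27), in contrasts that called 30.0%, 12.4% and 15.0% of transcripts. Without the block only dorDG passed. venDG lost its call without replicate 4 and without replicate 5, and without replicate 1 MDT and PVN were called as well, below the other regions.

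From dorDG downward the fitted Sham levels formed a shallow slope. dorDG stood at 3.91 on the log2 CPM scale, venDG at 3.12, LS at 3.08, ILC (infralimbic cortex) at 2.67, Raphe at 2.42 and NaCshell at 2.30. CMA (centromedial amygdala) followed at 2.17, BLA at 2.10, NaCcore at 2.08, InsularCortex at 2.06 and the medial septum (MS) at 1.96. PAG was at 1.92, PLC (prelimbic cortex) at 1.88, HB (habenula) at 1.87, SNT (solitary tract nucleus) at 1.85, LC (locus coeruleus) at 1.82 and LH (lateral hypothalamus) at 1.80. The lower end held CGC (cingulate cortex) at 1.75, Arc (arcuate nucleus) at 1.71, VTA at 1.68, MPOA (medial preoptic area) at 1.68 and BNST (bed nucleus of the stria terminalis) at 1.63. Last came VMH (ventromedial hypothalamus) at 1.60, MDT (mediodorsal thalamus) at 1.39 and PVN at 1.35. None of the 24 steps between neighbours in this order passed at an edgeR adjusted p of 0.05, in contrasts where 1.01% to 29.6% of transcripts were called, and only dorDG against venDG had an unadjusted p under 0.05. That step was also tested by itself. dorDG exceeded venDG by 0.79 on the log2 scale (SE 0.39, edgeR adjusted p = 0.471), with 1.86% of transcripts called, and dorDG was the higher in all 4 Sham replicates. The standard errors of the 24 steps were 0.39 to 0.53, and no step below venDG exceeded 0.41. Because the order was taken from the same fit, neighbours lie close by construction. The tests of neighbours therefore cannot show that regions share a level.

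The Sham and FT orders were alike at the top and differed below it. Over the 25 regions the fitted levels of the treatments had a Pearson's r of 0.72 and a Spearman's coefficient of 0.56, given as a description, since libraries of a replicate number share their animals across regions. In FT, dorDG, venDG and LS again had the 3 highest levels, and each passed against the mean of the other FT regions, in contrasts that called 31.6%, 15.8% and 14.9% of transcripts. Raphe ranked 5 in Sham and 25 in FT, and ILC ranked 4 in Sham and 12 in FT. The Sham rank of Raphe rested on replicate 1. Raphe ranked 4, 20, 9 and 25 in Sham replicates 1, 3, 4 and 5, and its fitted Sham level ranked 19 without replicate 1 and 15 without the block. ILC ranked 8 without replicate 1. Raphe, MDT and Arc lay below the other FT regions, at log2 differences of -1.42 (SE 0.35), -1.0 (SE 0.31) and -0.88 (SE 0.31) by edgeR, in contrasts that called 21.4%, 14.8% and 19.6% of transcripts.

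The main comparison of the study, FT against Sham, was then made within each region. Nr3c2 had a lower fitted level in FT in all 25 regions, with log2FC from -2.52 in Raphe to -0.31 in BNST and a median of -1.0. It was called in 2 regions, Raphe and Arc, where a call needed an edgeR adjusted p of at most 0.1 and a log2FC of 0.32 or more in size. In those regions 3.51% and 10.8% of the transcripts tested were called lower in FT. Over all regions together this share was 0.913%. Of the 11365 transcripts tested in every region, 2.89% had a negative log2FC in all 25 and 4.13% a positive one, and the median log2FC of Nr3c2 over regions lay at the 0.598 percentile. Nr3c2 reached an unadjusted edgeR p under 0.05 in 11 regions, which share their pools of animals. Among all transcripts tested, 935 of 13011 did so in ILC, the lowest share, and 4767 of 14464 in Arc, the highest. The standard errors ran from 0.27 to 0.67.

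**Figure D2:**
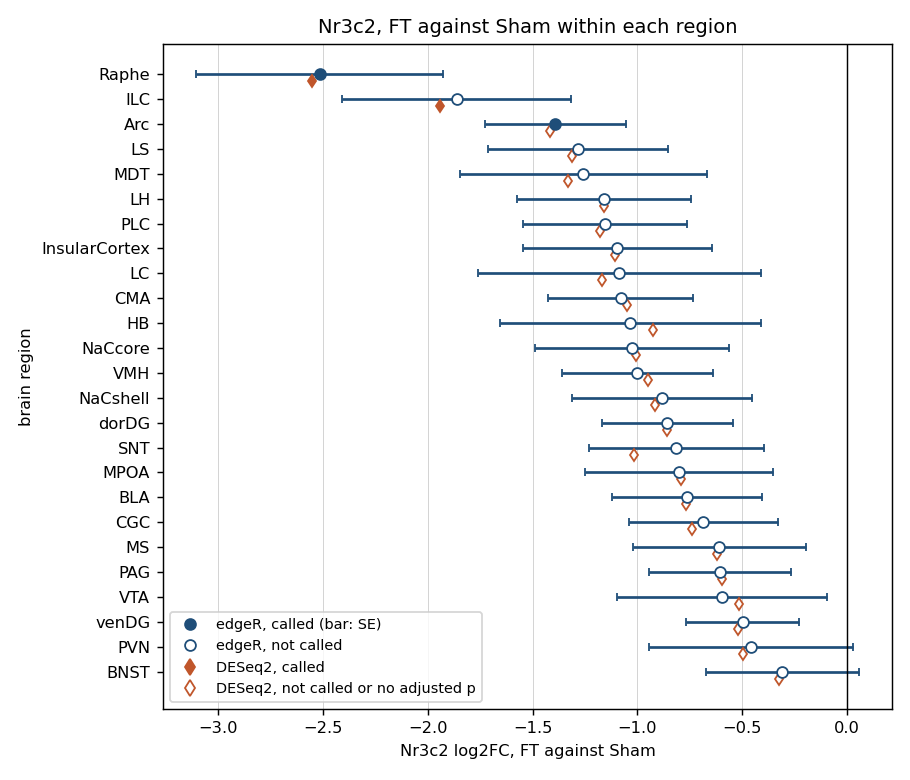
Log2FC of Nr3c2, FT against Sham, within each of 25 regions; circles are edgeR estimates with bars of 1 SE, diamonds are DESeq2 estimates, and filled symbols passed the call rule. All estimates of both tools lie below 0, edgeR called Raphe and Arc, and DESeq2 called Raphe and ILC.

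In Raphe, the Sham libraries read 4.10, 2.79, 5.95 and 4.19 CPM for replicates 1, 3, 4 and 5, and the FT libraries 0.0631, 0.901, 1.44 and 1.39 CPM. The highest FT value lay below the lowest Sham value. The log2FC was -2.52 (SE 0.59, edgeR adjusted p = 0.0665), a 5.72-fold lower level, and DESeq2 gave -2.55 (adjusted p = 0.00532, 4.82% called lower), with all 4 pairs lower in FT. These values rest on few reads, since the FT libraries held 1, 2, 12 and 15 reads and the Sham libraries 70, 11, 71 and 52. In the pair of replicate 1 the FT to Sham ratio of CPM was 0.0154, with an exact 95% interval for counting error alone of 0.000384 to 0.0885. Leaving out replicate 1 gave a log2FC of -1.84 and an adjusted p of 0.103, and leaving out replicate 4 or 5 raised the adjusted p to 0.239 or 0.129, each past the threshold.

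In Arc, the 2 Sham libraries read 4.29 and 5.47 CPM for replicates 4 and 5, and the FT libraries 0.349, 0.797, 2.09 and 1.59 CPM for replicates 1, 3, 4 and 5. Both Sham values lay above every FT value. With the replicate block the log2FC was -1.39 (SE 0.34, edgeR adjusted p = 0.0483), a 2.62-fold lower level, and it rested on pairs 4 and 5, since the FT libraries of replicates 1 and 3 have no Sham partner. DESeq2 gave -1.42 and no adjusted p, because its filter on low counts removed the transcript. Without the replicate block edgeR did not call Arc (log2FC -1.93, adjusted p = 0.509), and its same-numbered samples deviated from their group means with a median r of -0.03.

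Other genes moved in these same regions. Every marker transcript comes from the study's table of shared differentially expressed genes. The study had thus already called them in these data, and their calls are not an independent check of tissue makeup. In Raphe, of 33 marker transcripts tested, 6 were called lower and 1 higher, where 6.6% of all transcripts tested were called. The dopamine gene Th had a log2FC of -1.92, the brainstem glycine receptor gene Glra1 -1.06, the astrocyte potassium channel gene Kcnj10 -2.62, the astrocyte GABA transporter gene Slc6a11 -1.40, the microglial gene Selplg -1.93 and the neuronal tubulin gene Tubb3 -1.11, and the neuronal transcription factor gene Neurod1 was called higher at 1.12. The summed levels overlapped. The 5 astrocyte markers summed to 265 to 423 CPM in Sham and 297 to 357 in FT, and 2 of them were called. Of these 5, 2 had a log2FC above 0 and 3 below. Above 0 were also 3 of 7 oligodendrocyte, 1 of 4 microglial and 1 of 4 neuronal markers. The 7 oligodendrocyte markers summed to 823 to 1326 CPM in Sham and 847 to 1242 in FT, with none called. For the 4 microglial markers the sums were 24.7 to 70.4 and 24.9 to 68.1 CPM, and for the 4 neuronal markers 1475 to 7343 and 1621 to 5449 CPM, with 1 called in each list. No marker of these lists was at 0 in either group. The 3 choroid plexus markers summed to 41.1 to 413 CPM in Sham and 9.77 to 71.2 in FT, and the 2 blood markers to 227 to 1144 and 245 to 1271 CPM. In Arc, 22 of 37 marker transcripts were called, 12 lower and 10 higher, where 24.6% of all transcripts tested were called. Slc6a3 had a log2FC of -5.47, and the hypothalamic peptide genes Hcrt, Avp and Oxt rose by 3.06, 3.15 and 3.62. The 5 astrocyte markers, all called, 3 lower and 2 higher, summed to 551 to 557 CPM in Sham and 393 to 444 in FT, and the 7 oligodendrocyte markers, 3 called lower and 2 higher, to 411 to 426 and 238 to 341 CPM. Sums of the microglial and neuronal markers in FT, 30.0 to 87.0 and 1235 to 2954 CPM, overlapped those in Sham, 50.4 to 53.9 and 1103 to 1343 CPM. The choroid plexus markers summed to 7.27 to 29.1 CPM in Sham and 40.9 to 53.0 in FT, and the blood markers to 107 to 472 and 146 to 2038 CPM. The Sham sums in Arc come from replicates 4 and 5 alone and the FT sums from all 4 replicates. Their ranges therefore mix replicate with treatment. The part of any of these marker genes in the Nr3c2 difference was not tested.

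ILC had the second-lowest log2FC, -1.86 (SE 0.55, edgeR adjusted p = 0.419), in a region where 0.0307% of transcripts were called lower. Its Sham libraries read 4.50, 19.7, 5.56 and 6.91 CPM and its FT libraries 0.449, 5.86, 3.13 and 1.97 CPM, so the groups overlapped through the FT library of replicate 3. DESeq2 called it at -1.94 (adjusted p = 0.0754, 0.577% called lower), with 1 of the Sham values being the 3-read library. Without replicate 3 the edgeR log2FC was -1.86 and the adjusted p 0.416. The Sham ILC library of replicate 1 was unusual too, with 82.85% of its counts in the 50 most abundant transcripts. The log2 ratio of that pair was -2.98 with TMM factors and -1.50 by library totals alone. For the dentate gyrus, FT libraries read 1.22, 18.6, 15.2 and 11.3 CPM in dorDG and 1.248, 9.39, 9.30 and 8.77 CPM in venDG. Both groups overlapped with Sham, at log2FC of -0.86 (SE 0.31, edgeR adjusted p = 0.29) and -0.50 (SE 0.27, edgeR adjusted p = 0.483). In LS the FT libraries read 0.571, 5.17, 5.80 and 4.89 CPM, lower than Sham in all 4 pairs, at a log2FC of -1.28 (SE 0.43, edgeR adjusted p = 0.549). The other 19 uncalled regions had log2FC from -1.26 in MDT to -0.31 in BNST, and adjusted p over all uncalled regions ran from 0.214 to 0.745.

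Since every region of a replicate number came from the same pools of animals, the 4 pools per treatment are the replicates behind the pattern over regions. Of 95 pairs, 79 had the lower CPM in FT. Replicate 5 was lower in FT in 25 of 25 regions, with a median log2 ratio of -1.36 and a range of -2.81 to -0.69. Replicate 4 was lower in 21 of 25 regions (median -0.59), the exceptions being BNST, MDT, MS and PVN. Replicate 1 was lower in 18 of 22 (median -1.26). Replicate 3, which had the fewest counts, was lower in 15 of 23 (median -0.19), and its extremes of 4.38 in SNT and -5.38 in LC came from the libraries with 0 reads. Among the 22 regions with 4 pairs, 9 were lower in all 4, 10 in 3 and 3 in 2. The excluded CGC pair of replicate 1 went the other way, with 1.91 CPM in Sham and 6.43 in FT, on 96 and 12 reads. By library totals alone, without TMM factors, its log2 ratio was -0.12.

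**Figure D3:**
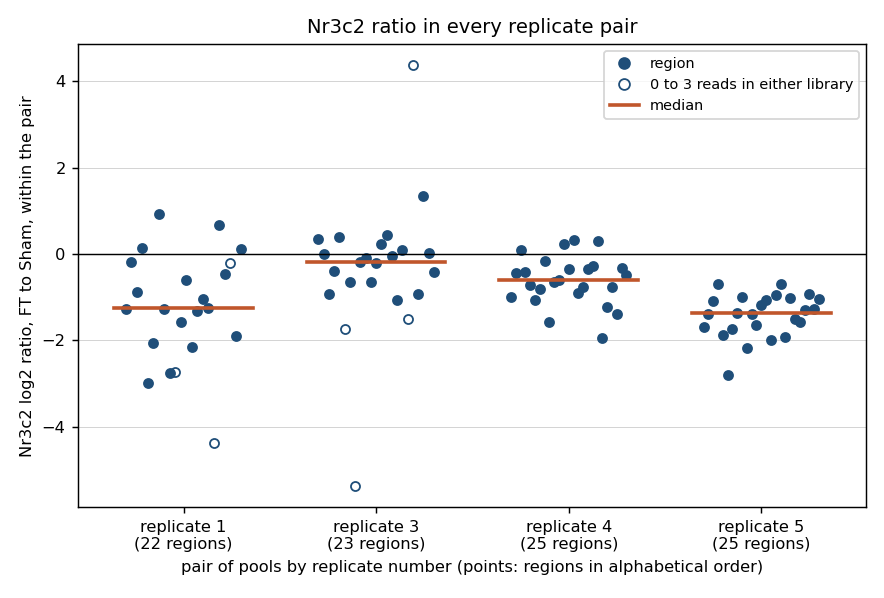
Log2 ratio of FT to Sham for Nr3c2 (log2 CPM, prior count 2) in each of 95 pairs, grouped by replicate number; each point is a region, open points have 0 to 3 reads in either library and bars are medians. All 25 points of replicate 5 lie below 0, and the spread is widest in replicate 3.

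Averaged over the 22 regions with 4 pairs, the log2 ratio was -1.24 in replicate 1, -0.27 in replicate 3, -0.61 in replicate 4 and -1.44 in replicate 5. The mean was -0.89 ± 0.54 (SD, n = 4), lower in 4 of 4 pairs of pools (exact sign-flip permutation test, two-sided p = 0.13, the smallest that 4 pairs can give). This test thus cannot reach p under 0.05 for this mean. Library makeup differed within the pairs as well. The share of reads outside annotated features differed (FT minus Sham) by a median of -3.75 percentage points in replicate 1, 0.15 in replicate 3, 4.97 in replicate 4 and -2.14 in replicate 5, and its part in the ratios was not tested. Whether the size of the response differed between regions was tested by permuting region labels within replicate numbers. The regional mean ratios had an SD of 0.59 on the log2 scale around the replicate means, which did not exceed the spread from permuted labels (100000 permutations, one-sided p = 0.299, 22 regions). The test spans all 22 regions, with the SNT and LC pairs that hold a library of 0 reads, and does not single out Raphe. Whether the larger log2FC of Raphe differs from that of other regions was therefore not tested by itself and is not shown.

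A list of 59 genes of corticosteroid signalling was read from the same fits, of which 24 have a named transcript here. All 24 come from the study's table of shared differentially expressed genes, so their calls are not independent evidence of a direction. For the same reason, a share of calls above that of all transcripts follows from how they were chosen and is not evidence about the list. Over all regions, 37 of 526 tests were called (7.03%), 21 higher and 16 lower, against 1.93% of all transcripts tested. The calls fell in Arc (16 of 23 tested, 24.6% of all transcripts called), MPOA (7 of 23, 9.59%), Raphe (7 of 22, 6.6%), SNT (4 of 20, 4.16%), and, with 1 each, CGC (0.465%), CMA (0.00742%) and NaCcore (0.229%). The median log2FC of the list was 0.19, while the regional medians of all transcripts lay between -0.05 and 0.05.

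Among receptor chaperones, 16 of 225 tests were called, 9 higher and 7 lower. Ppp5c, a phosphatase that binds the receptor complex through Hsp90, was below 0 in 25 of 25 regions and fell in 4, with a log2FC of -1.79 in Arc, -1.33 in MPOA, -1.30 in Raphe and -0.91 in SNT. Sgta, a co-chaperone, fell in Raphe (-1.78) and SNT (-1.17). Hspbp1, a nucleotide exchange factor of Hsp70, fell in MPOA (-1.14). Dnajb2, an Hsp40 protein of neurons, went the other way and rose in Arc by 1.09, CGC by 1.24, MPOA by 0.87 and NaCcore by 1.28. Its relative Dnaja2 rose in Arc by 0.99 and Raphe by 0.75, and Ptges3, the Hsp90 co-chaperone p23, in Arc by 0.75 and Raphe by 0.92. Bag1, another Hsp70 cofactor, rose in Arc by 1.02 and had a positive log2FC in all 25 regions. Fkbp4, an immunophilin of the steroid receptor complex, was positive in all 25 (0.04 to 0.95) and called in none by edgeR and in 7 by DESeq2. Ppid, a cyclophilin of the same complex, ranged from -0.92 to 0.83, with no edgeR call and 3 by DESeq2. The chaperones named thus moved in both directions where they passed the test.

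Coregulators had 10 calls in 150 tests, 6 higher and 4 lower. Trim28, a corepressor scaffold, rose in Arc by 1.65, MPOA by 1.76, Raphe by 1.10 and SNT by 1.07. Smarcd3, a subunit of the SWI/SNF chromatin remodelling complex, rose in Arc by 0.83, and Sra1, a steroid receptor RNA activator, by 0.59. Ncoa2, a steroid receptor coactivator, fell in Arc (-1.08) and Raphe (-1.70), and was below 0 in 24 of 25 regions. Of other nuclear receptors, 5 of 125 tests were called. The orphan receptor Nr2c1 rose in Arc by 2.39 and MPOA by 1.60, and Rxrb, a partner of many nuclear receptors, rose in Arc by 0.95. The thyroid hormone receptor Thra fell in Arc (-0.57) and MPOA (-0.83). Smarca4, Rora and Esrrg had no edgeR call.

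Htr1a, the serotonin 1A receptor and the 1 matched target, had enough reads for a test in 9 regions and fell in 3, with a log2FC of -4.23 in Arc, -3.23 in MPOA and -1.57 in Raphe. By edgeR, Nr3c2 and Htr1a were both called lower in Raphe and Arc, where 3.51% and 10.8% of all transcripts tested were called lower. Both genes were taken from the study's table of shared differentially expressed genes, and a link between their levels was not tested. DESeq2 called Htr1a lower in dorDG and Raphe and not in Arc or MPOA. The axis peptides gave 3 calls in 17 tests, all higher. Avp rose in Arc by 3.15 and CMA by 2.91, and Oxt in Arc by 3.62, while Ucn was tested in 1 region and not called. Without the replicate block, no test of the list was called by edgeR, in fits that called 1 transcript in MPOA and none elsewhere. The glucocorticoid receptor Nr3c1 and 34 more listed genes have no named transcript here and were not analysed.

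**Figure D4:**
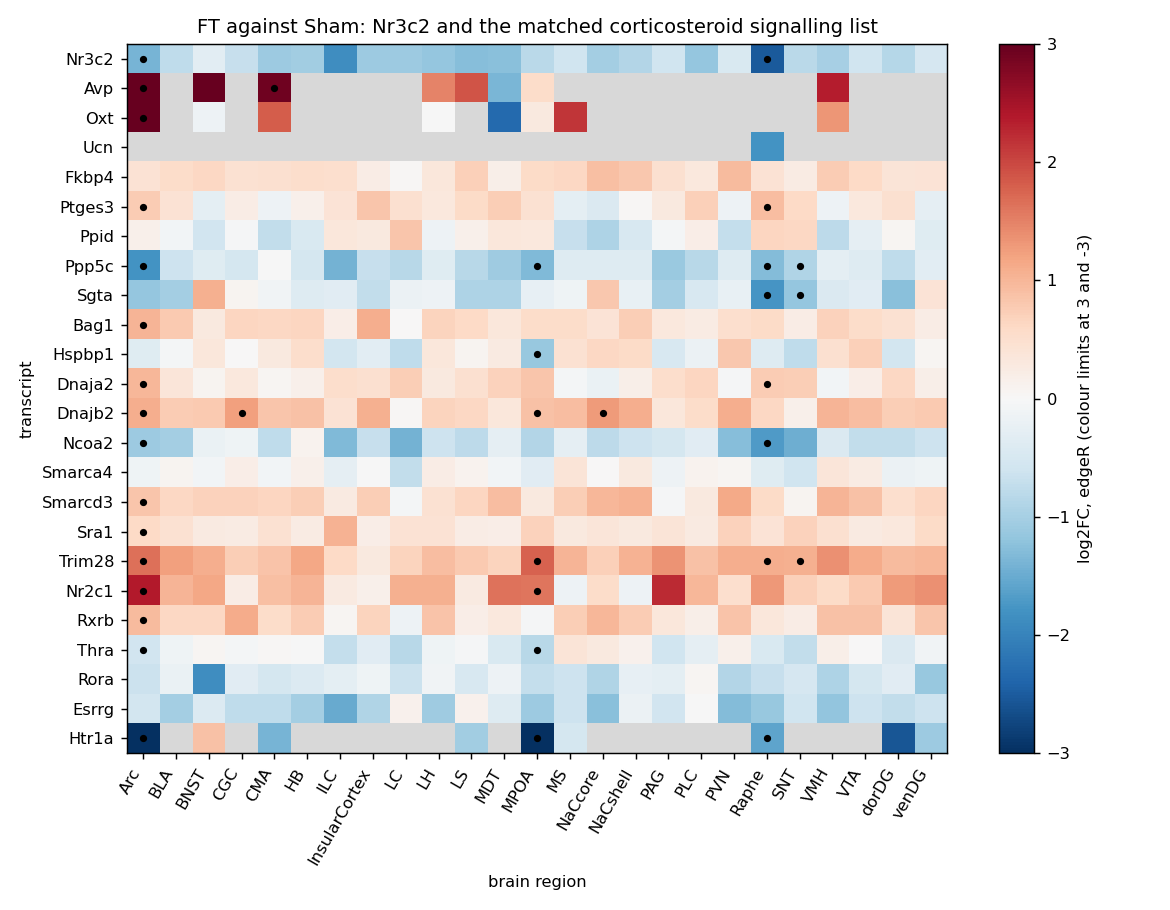
Log2FC, FT against Sham, by edgeR for Nr3c2 (top row) and 23 matched transcripts of the corticosteroid signalling list in 25 regions; blue is lower and red higher in FT, with colours cut at 3 and -3, grey was not tested and dots mark calls. Nr3c2 is blue in every column, as is Ppp5c, Trim28 is red in every column, and the dots gather in Arc, MPOA, Raphe and SNT.

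Last, the regional profile of Nr3c2 in Sham was compared with those of 1844 other named transcripts, as Pearson's r over 25 region means of log2 CPM. These r values are descriptions, since the means share libraries, pools and depth. The highest belonged to Dgkg, a diacylglycerol kinase (r = 0.82), Matn2, an extracellular matrix protein (0.81), Tnfrsf19, a TNF receptor family member (0.81), Abl2, a tyrosine kinase of the cytoskeleton (0.79), Klhl26, a Kelch-like protein (0.79), and Lgi1, a secreted synaptic protein linked to epilepsy (0.78). Among all 16946 transcripts tested, 7 had an r at or above that of Dgkg. Of the 6, 4 were highest in dorDG, as Nr3c2 was, while Dgkg was highest in venDG and Tnfrsf19 in Arc. These means carry no replicate block, and that of Arc holds Sham replicates 4 and 5 alone. For Nr3c2 the Arc mean was 2.32, against a fitted level of 1.71 with the block. The lowest r belonged to Pts, an enzyme of tetrahydrobiopterin synthesis (-0.68), Glra1 (-0.63) and Rnd2 (-0.62).

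**Figure D5:**
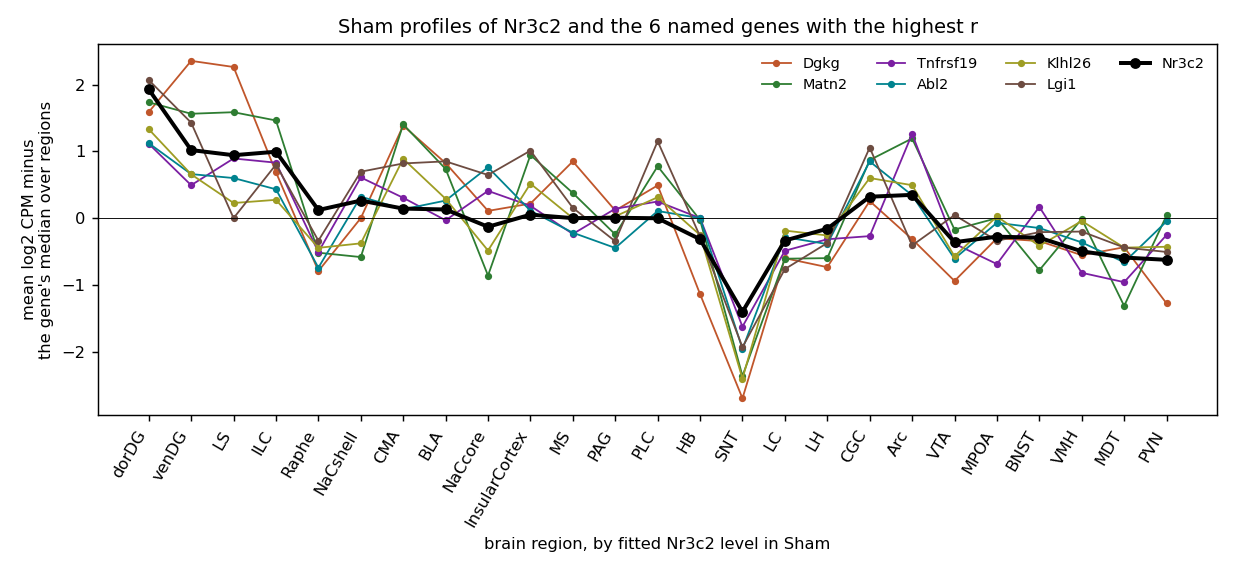
Sham region means of log2 CPM, each minus the gene's own median over 25 regions, for Nr3c2 (thick black line) and the 6 named genes with the highest Pearson's r, with regions in the order of the fitted Nr3c2 level. All 7 lines lie above 0 in dorDG and dip in SNT, whose mean includes the library with 4586 counts.

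The likeness depended on the libraries. With Sham libraries under 1000000 counts left out, also added once the values were known, the r of these 6 was 0.71 to 0.79, and in FT it was 0.57 to 0.72. Their response to treatment was not alike either. Over 25 regions, Tnfrsf19 and Lgi1 were each below 0 in 24, and Dgkg, Matn2, Abl2 and Klhl26 above 0 in 16, 23, 20 and 24. Tnfrsf19 and Lgi1 were each called lower in Arc. Matn2 and Abl2 were called higher in Arc and MPOA, Klhl26 in Arc and SNT, and Dgkg in no region. Of all transcripts tested, 24.6% were called in Arc, 9.59% in MPOA and 4.16% in SNT. All 6 genes come from the study's table of shared differentially expressed genes, so these calls are not independent evidence of a direction.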

How the data were processed

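RNA was sequenced as 76 bp paired reads from 196 samples, and the authors deposited raw read counts per Ensembl transcript, made per the labels and methods with STAR on rn5 and HTSeq, with no normalization. Tool versions and the strand setting are not given in the sources used here. Reads that fit several transcripts were not counted, a median of 5.52% per library, so Nr3c2 reads shared with other isoforms or overlapping genes are missing. The member, gene lists and tests were chosen with earlier results of these data known. Samples were grouped by region and treatment from the labels. CGC replicate 1 was left out after the study's outlier removal, which names no replicate.

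Each region was fitted alone in edgeR 4.0.16 (R 4.3.3) using its quasi-likelihood test, TMM factors, filterByExpr (minimum count 10, minimum total 15) and a block for the replicate number, with Benjamini-Hochberg adjustment over all transcripts tested. SEs were the size of the log2FC over the root of its F statistic. Same-numbered FT and Sham samples were paired because the methods state parallel processing. Their deviations from group means correlated with a median r of 0.66 over regions, and every pair exceeded 0.1 in 23 of 25 regions, Arc and MPOA excepted. Sham levels came from 1 joint edgeR fit of all regions with the same block. Levels are CPM with TMM factors over all libraries, and log2 CPM used a prior count of 2. DESeq2 1.42.0 was an alternative. The steps were tested on simulated data. Each sample was a pool of 10 animals. Within a region, p-values from fits with the block measure the spread between pools left after replicate differences. In the joint Sham fit, libraries of different regions from the same pool count as separate units. For the mean ratio over regions, the pair of pools was the unit. Intervals and floors cover counting error only. Tables and figures used Python 3.11.15. Genes named were Nr3c2, list members called in any region with all matched chaperones, and the 6 named transcripts with the highest and 3 with the lowest r. Values of 1 list member that is included in the counts are not reported here.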

Additional observations from a re-analysis of the deposited data

Results flagged for a closer look

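In 5 of 48 groups of 4 libraries, 1 Nr3c2 value lay far from the other 3 by Dixon's test at its 95% critical value, where chance flags about 1 in 20 groups. Sham ILC replicate 3 stood high at 19.72 CPM, on 3 reads, with the next value at 6.91. The other 4 stood low, and all were replicate 1. Sham PAG read 1.513 CPM against a next value of 4.78, and FT NaCshell read 0.286 against 4.31. FT PVN read 0.2762 CPM against 2.74, and FT venDG 1.248 against 8.77, on 21 reads.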

How the results depend on the processing

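The log2FC of Nr3c2 stayed negative in every region under every alternative that gave a value, with medians over regions from -1.14 to -0.68, and the mean ratio over regions lay between -1.10 and -0.71 with 1 pair of pools left out. The count of regions with a call went from 2 to 4 with no low-count filter, where ILC at -1.83 and LH at -1.18 were added. It went to 1 at an adjusted p of 0.05 and to 0 with no replicate block. Without the block the lowest edgeR adjusted p was 0.509. An unadjusted p under 0.05 was then reached in 2 regions, Arc and Raphe, where 1409 of 14464 and 623 of 12550 transcripts reached it. Leaving out 1 replicate gave 0 to 2 calls, with 0 without replicate 4 or 5, when Arc and MPOA could not be fitted (SNT also gave no value without replicate 5); SNT was called without replicate 1 (log2FC -1.50), a fit that includes its library of 4586 counts. DESeq2 also gave 2, Raphe and ILC, and had no adjusted p in 10 regions. The replicate block decided the test over Sham regions (adjusted p 0.33 without it), which rose to 0.0742 without dorDG and venDG, but not the dentate gyrus contrast, which ran from 1.48 to 1.74 with 1 replicate left out. The order of Sham regions below dorDG was not stable. Some steps between neighbours changed sign under each Sham alternative (lowest -0.57, without replicate 1), and LS lay above venDG with RLE factors and without replicate 3, 4 or 5. Of the 24 neighbouring steps 2 were called in FT (ILC against Raphe and Raphe against NaCshell). The list gave 112 calls by DESeq2, 0 without the block and 1 to 56 with 1 replicate left out, against 37. The calls among all transcripts shifted too. DESeq2 called 948 in NaCshell against 2 by edgeR and 924 in NaCcore against 30, but 819 in Arc against 3551. Only in Arc and MPOA did it call fewer than edgeR. Without the block, edgeR called 1 transcript, in MPOA. These list counts are therefore not read as a result about the list. Of the 6 most similar genes, 0 stayed among the first 6 in FT, 2 with Spearman's coefficient and 2 without libraries under 1000000 counts. The difference in response between regions did not pass under any alternative run (lowest p 0.0683, without SNT, LC and ILC, chosen after the data were seen). Other causes were not tested. Low Nr3c2 counts limit precision most in replicates 1 and 3; only replicate 3 also had the lowest median total counts.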
